A study of Homo sapiens with 2 samples.

Results

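The mRNAs of 8 nuclear receptor coregulators, NCOR1 and NCOA1 to NCOA7, were compared between RNA that came down with an immunoprecipitated protein and the RNA of the whole lysate. The genes were taken by their symbols, and all 8 were among the 25556 genes of the expression table. The cells were Huh-7, an established human hepatocellular carcinoma line, labelled as wild type and untreated, and the study held 2 libraries: 1 from the immunoprecipitation (IP), made from 90% of the lysate, and 1 from the remaining 10%, the input. In this assay, RNA immunoprecipitation sequencing, a higher level in the IP than in the input marks RNA that was recovered preferentially with the protein. The design text describes an antibody against the splicing factor SRSF7, the treatment label of the IP reads SPSF7, and the sample protocol describes one against the m6A reader YTHDF2 applied to poly(A) RNA, and here the libraries go by their labels only. No control antibody is among the 2 libraries.

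Nuclear receptors are transcription factors that are switched by small lipophilic ligands, and in the liver they set bile acid, lipid and glucose metabolism. Coactivators dock on a ligand-bound receptor through short leucine-rich motifs and bring in enzymes that open chromatin, while corepressors hold receptors without an activating ligand in a silent state by bringing in a histone deacetylase. NCOR1 is the corepressor of the group, NCOA1, NCOA2 and NCOA3 are the paralogous p160 coactivators, and NCOA6 is a coactivator that sits in a histone methyltransferase complex. NCOA4, NCOA5 and NCOA7 share the name but not the protein family, and NCOA4 is best known as the receptor that delivers ferritin to the lysosome.

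In all, 5897293 IP reads and 2782045 input reads were assigned to genes. Levels are RPKM, reads scaled to the exon length of the gene and the size of the library. Of the genes, 14057 had a mean of at least 1 RPKM over both libraries, as all 8 coregulators did, and these are the genes tested below. With 1 library per group there is no replicate check and no test between conditions, and the 95% intervals given are exact intervals of read counts that cover counting error only. They take reads as independent, but 77.3% of genes with 1 to 20 reads had an even number in either library, as would arise from counting each mate of a pair, and the intervals are then too narrow. Hepatocyte markers were abundant, with ALB at 655 IP and 944 input RPKM and AFP at 1613 and 2814. Of markers of other cell types, the 6 erythroid genes summed to 698 IP and 1057 input RPKM, of which HBB alone stood at 467 and 738, the 6 immune genes to 89.0 and 158, led by LYZ, the 5 cholangiocyte genes to 213 and 116, of which SOX9 alone stood at 118 and 23.0, the 5 fibroblast genes to 3.83 and 2.95 and the 4 endothelial genes to 2.77 and 4.29. Among these markers, CDH5 was at 0 reads in the input, and DCN and VWF were not among the genes listed. The part of these markers in the values below was not tested.

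Of the 8 coregulator mRNAs, 7 had a higher level in the IP than in the input and 1, NCOA4, a lower one, counts that became 6 and 2 or 8 and 0 with the other scalings of the libraries given at the end. NCOR1 and NCOA6 were at least 2-fold higher on the scale of log2((IP + 1)/(input + 1)) of RPKM, called the log2 ratio here, which counts 2 of 8 members against 11.3% of all genes tested. NCOR1 alone was past 2-fold when the log2 ratios were centred on the median of all genes (NCOA6 at 0.95) or the libraries were scaled to their protein-coding reads (NCOA6 at 0.78). No member (0 of 8) was at least 2-fold lower, against 8.25% of all genes. Shares of all genes, here and below, were not matched for gene type or exon length. Among protein-coding genes tested, 6.22% were lower with 2000 to 4000 exon bases and 2.39% with 4000 to 8000. The share lower was 0.82% with 8000 to 12000 and 0.16% above 12000. The share at least 2-fold higher was 6.29%, 7.65%, 9.93% and 15.9% in that order. The 8 members had 3224 to 15404 exon bases. The median log2 ratio of the 8 genes was 0.52, and that of all genes tested 0.14. The counting interval of the plain RPKM ratio lay wholly above 1 for 6 members (31.4% of all genes), wholly below 1 for NCOA4 (18.6% of all genes), and held 1 for NCOA1. Both libraries pool many cells, so a level or a ratio does not tell whether all cells or a part of them contributed.

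**Figure D1:**
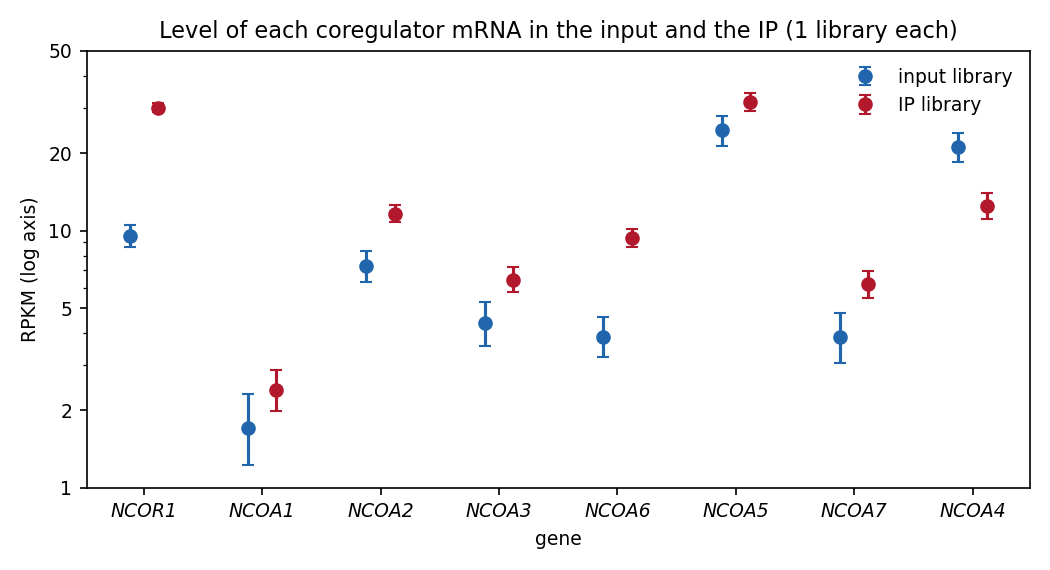
RPKM of each coregulator gene (log axis) in the input library (blue) and the IP library (red), 1 library each, with bars for the exact 95% interval of the read count. NCOR1 lies at 9.54 RPKM in the input and 30.1 in the IP, and NCOA4 is the gene whose red point, 12.5, lies below its blue one, 21.1.

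In the input, which stands for the lysate, the 8 mRNAs spanned levels from 1.71 to 24.5 RPKM. NCOA5 was highest at 24.5 RPKM (interval 21.4 to 28.0) and NCOA4 followed at 21.1 (18.5 to 23.9), and these neighbours did not differ beyond their intervals. NCOR1 came next at 9.54 RPKM (8.64 to 10.5) and NCOA2 at 7.25 (6.29 to 8.33), each apart from its neighbours. NCOA3 at 4.36 RPKM, NCOA6 at 3.87 and NCOA7 at 3.85 had overlapping intervals, and NCOA1 was lowest at 1.71 (1.23 to 2.32). In the IP the order was different at the top. NCOA5 at 31.5 RPKM (29.0 to 34.1) and NCOR1 at 30.1 (28.9 to 31.2) overlapped and stood above all others, NCOA4 at 12.5 and NCOA2 at 11.6 overlapped, and NCOA6 at 9.38 (8.66 to 10.2) lay clear of NCOA3 at 6.45 and NCOA7 at 6.19. NCOA1 was again lowest, at 2.40 RPKM.

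The corepressor NCOR1 had the highest IP to input ratio of the 8. The NCOR1 protein is a large docking platform that binds unliganded receptors and activates the deacetylase HDAC3. Its gene lies on the minus strand of chromosome 17, from 16029157 to 16218185 in the coordinates of the deposited table (genome build not stated), with 52 merged exons (overlapping exons of all isoforms joined) of 15404 bases in all. It had 2731 reads in the IP and 409 in the input, the most reads of the group. The RPKM ratio was 3.15 (2.84 to 3.50), the log2 ratio was 1.56, and 95.9% of all genes tested had a lower log2 ratio. The interval overlapped that of 1 other member, NCOA6.

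Of the p160 coactivators, NCOA2 and NCOA3 had ratios whose intervals lay above 1, that of NCOA1 held 1, and the intervals of all 3 overlapped. These proteins bind receptors directly and recruit the acetyltransferases CREBBP and EP300 and the arginine methyltransferase CARM1. NCOA1 (chromosome 2, 24491914 to 24770702, plus strand) had 122 reads in the IP and 41 in the input, the fewest of the group, and its ratio was 1.40 (0.978 to 2.05). NCOA2 (chromosome 8, 70109782 to 70403808, minus strand) had 686 and 202 reads, and the ratio was 1.60 (1.37 to 1.88). NCOA3 (chromosome 20, 47501887 to 47656877, plus strand), a gene amplified in some breast cancers, had 320 and 102 reads, for a ratio of 1.48 (1.18 to 1.87). The log2 ratios were 0.33, 0.61 and 0.48 in that order, all above the median of all genes.

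NCOA6, the receptor-binding scaffold of the complex that holds the methyltransferases KMT2C and KMT2D, had the second highest ratio. The gene lies on the minus strand of chromosome 20, from 34689097 to 34825651, and has 22 merged exons of 11133 bases. With 616 reads in the IP and 120 in the input (9.38 and 3.87 RPKM), its ratio was 2.42 (1.99 to 2.97) and its log2 ratio 1.09, close to the 2-fold threshold and below it with the settings named above. The interval overlapped those of 3 other members, NCOR1, NCOA1 and NCOA7. The last named pair had wide intervals on 41 and 82 input reads.

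NCOA5 and NCOA7 were also above their input level, with the levels as deposited. NCOA5, which lacks the domains of the p160 family and modulates estrogen receptors, lies on chromosome 20 (46060991 to 46089962, minus strand). From 599 reads in the IP and 220 in the input came a ratio of 1.28 (1.10 to 1.51), the smallest of the 6 whose interval lay above 1. NCOA7, an estrogen receptor partner with a TLDc domain, a fold shared with proteins of oxidative stress resistance, lies on chromosome 6 (125781161 to 125932034, plus strand). Its ratio was 1.61 (1.25 to 2.08), on 279 reads in the IP and 82 in the input. An antisense gene, NCOA7-AS1, was listed with 2 IP reads and 1 input read.

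NCOA4 went the other way. It lies on the minus strand of chromosome 10, from 46005088 to 46030714, and was covered by 300 reads in the IP and 239 in the input (12.5 and 21.1 RPKM). Its level in the IP was 1.69-fold lower than in the input (1.42 to 2.01), a log2 ratio of -0.71, and 13.6% of all genes tested had a lower one. Its interval overlapped that of 0 other members. A processed copy, NCOA4P3, was listed with 0 IP and 2 input reads. Of 7 listed partners of NCOA4 in ferritin turnover, 1 had an interval wholly above 1, 3 wholly below it, and 3 had intervals that held 1 (31.4% of all genes lay above and 18.6% below). FTH1, the ferritin heavy chain that NCOA4 binds, had a ratio of 0.920 (0.893 to 0.947), on 13300 and 6821 reads, and FTL, the light chain, at 1.05 times (0.981 to 1.13). The transferrin receptor TFRC was at 0.820 times the input (0.746 to 0.902), the iron regulatory protein gene IREB2 at 0.664 times (0.550 to 0.804). HERC2, the very large ubiquitin ligase that turns over NCOA4, was at 2.85 times (2.39 to 3.43). Among these 7 genes, 1 was at least 2-fold higher and 0 lower, against 11.3% and 8.25% of all genes, with a median log2 ratio of -0.02.

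The ratio also went with the length of the mRNA across all genes. Among protein-coding genes tested, the median log2 ratio was -0.07 for the 954 genes with up to 2000 bases of exons, 0.18 for the 4144 with 4000 to 8000, and 0.45 for the 635 with more than 12000. NCOR1 and NCOA6, the 2 longest of the 8 coregulators, also had the 2 highest log2 ratios. Set beside protein-coding genes of 0.8 to 1.25 times its own length, NCOR1 (1.56) stood well above the median of 0.44 (quartiles 0.03 and 0.76, 472 genes), and 97.5% of them were lower. NCOA6 (1.09) stood above a median of 0.34 (1239 genes) and 91.1% were lower. NCOA1 (0.33) was next to the median of its length class, 0.27, and NCOA2, NCOA3, NCOA5 and NCOA7 lay between the median and the upper quartile of theirs, with 72.0%, 65.3%, 66.9% and 73.4% of like genes lower. For NCOA4 the median was 0.11 and 10.1% were lower. The part of exon length in these ratios was not tested beyond this.

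**Figure D2:**
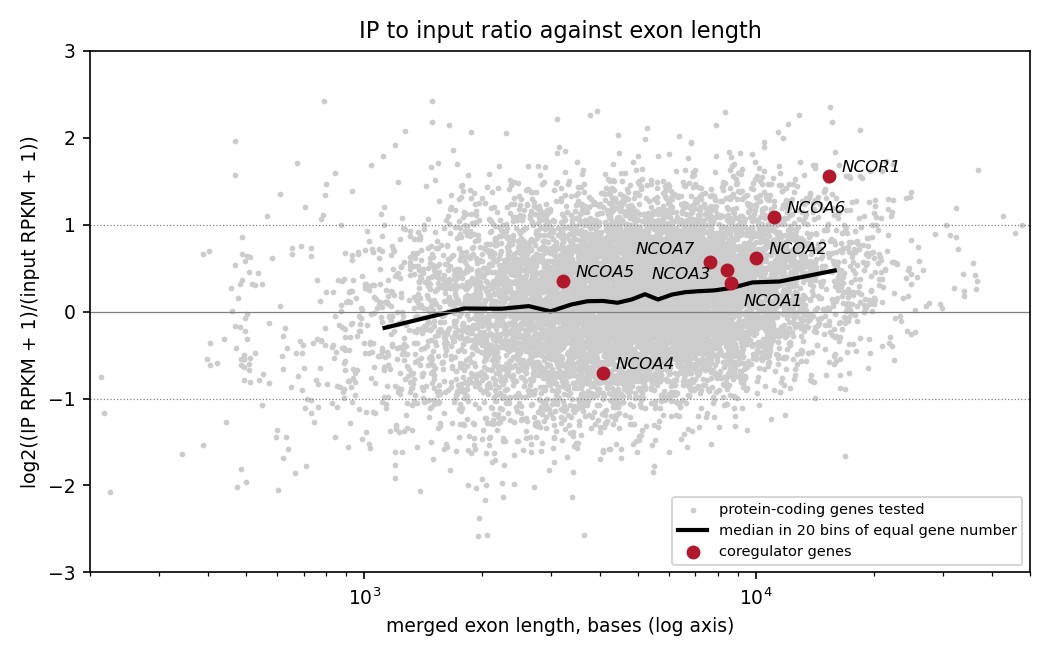
Log2 ratio of IP to input against merged exon length (log axis) for 9857 protein-coding genes (grey), with the 8 coregulator genes (red) and the running median (black line). NCOR1 and NCOA6 lie above the line at its long end, and NCOA4, at 4079 bases, lies below it.

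The authors' list of regions enriched in the IP placed 30 peaks on exons of 5 of the 8 genes on the same strand. Genes with at least 1 such peak made up 22.6% of all genes tested. Among protein-coding genes tested, the share was 31.9% with 4000 to 8000 exon bases, 46.0% with 8000 to 12000 and 62.0% above 12000. NCOR1 carried 16 peaks, NCOA6 7, NCOA2 and NCOA7 3 each and NCOA5 1, while NCOA1, NCOA3 and NCOA4 carried 0. Folds, p-values and false discovery rates of peaks are the authors' own, from 1 IP and 1 input, and every deposited peak had a fold of at least 2. Read depth limits what can be called as a peak, so the counts were set beside protein-coding genes with 0.8 to 1.25 times as many IP reads. For NCOR1 such genes had a median of 1 peak and a maximum of 23, and 96.3% had fewer than its 16. For NCOA6, 96.1% had fewer than 7. For NCOA3 and NCOA4, 50.1% and 49.2% of such genes had a peak, and for NCOA1, with its few reads, 22.2%. Input reads and exon length were not matched. Peaks were also called from the same 2 libraries as the ratios, so these shares are not independent of the ratios.

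The NCOR1 peaks covered 5075 of the 15404 exon bases, or 32.9%, against a median of 5.71% among genes tested that had a peak. That comparison was not matched for read depth or exon length. The NCOR1 peaks ran from 16.5% to 80.3% of the way along the merged exons, counted from the 5′ end by peak centre. The peak with the smallest p covered 777 exon bases in exons 14 to 21 (17:16121182-16146483, minus strand, introns included), and the authors' deposited table gives it a fold of 2.65, p = 8.5e-19 and a false discovery rate of 6.6e-17. The next smallest, in exons 9 to 14 just before it (17:16146533-16158790), had a fold of 2.59 and a false discovery rate of 2.9e-07 in the authors' deposited table. The longest by exon bases, 937 in exons 28 to 35 (17:16072164-16087187), had a fold of 3.61 and a false discovery rate of 1.2e-05, and the highest fold, 4.68, was that of the peak in exons 26 and 27 (17:16091805-16098413, false discovery rate 0.025), both in the authors' deposited table. Of the 16 peaks, 14 lay in exons 9 to 46. Beyond them were 2 more, in exon 50 (fold 2.86) and in the last exon (fold 2.26). Of the 16 peaks, 13 had a false discovery rate of at most 0.05, as did 60.3% of all deposited peaks.

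**Figure D3:**
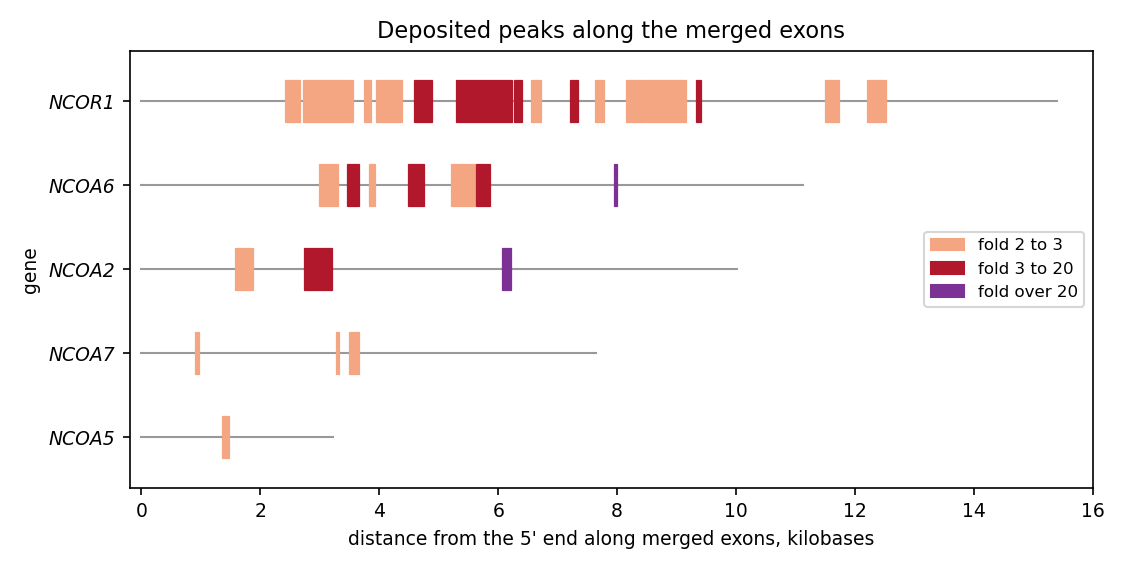
Deposited peaks (boxes, coloured by the authors' fold) along the merged exons of each gene with a peak, in kilobases from the 5′ end, with grey lines for the exon length. Of the 16 boxes of NCOR1, 14 lie between 2412 and 9403 bases and 2 beyond them, and purple boxes are the peaks with a fold over 20.

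The NCOA6 peaks lay between 28.2% and 71.7% of its exon length and covered 14.2% of it. Their folds ran from 2.44 to 3.90, apart from 1 of 27.6. Of the 7, 4 had a false discovery rate of at most 0.05 (60.3% of all deposited peaks). The largest, with 401 exon bases in exons 11 and 12 (20:34746867-34749741, minus strand), had a fold of 2.56 and a false discovery rate of 0.022 in the authors' deposited table, the lowest rate of the gene. NCOA2 carried a peak of 476 bases within exon 14 (8:70156409-70156884, fold 3.29, false discovery rate 0.010), 1 of 301 exon bases in exons 8 to 10 (fold 2.73) and 1 of 151 in exons 25 and 26 with a fold of 27.6, all in the authors' deposited table. NCOA7 carried 3 short peaks of 51 to 176 exon bases with folds of 2.06 to 2.93, of which 1 had a false discovery rate of at most 0.05. The single NCOA5 peak covered 126 bases of its last exon (20:46062740-46062865, minus strand), with a fold of 2.21 and a false discovery rate of 0.045 in the authors' deposited table.

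The folds of 27.6 on NCOA2 and NCOA6 were the same value with the same false discovery rate (0.039) and p in the authors' deposited table. That pair of values was shared by 77 deposited peaks in all, and 390 deposited peaks (5.10%) had a fold over 20. The sources used here do not give how folds were scaled, so these values were not read as a stronger enrichment. The other 28 folds lay between 2.06 and 4.68, and the median fold of the 30 peaks was 2.73 against 2.71 for all deposited peaks.

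Peaks on the 5 genes were mostly internal. None (0 of 30) reached the first merged exon and 3 reached the last, on NCOR1, NCOA2 and NCOA5. Last exons made up 27.3% of the exon bases of these genes and held 6.43% of their peak bases. NCOR1 alone held 5075 of these 8014 peak bases. Over all 3173 genes tested with a peak, last exons made up 32.1% of exon bases and held 15.0% of peak bases. Exactly 15 of the 30 peaks lay within a single merged exon. For the first-exon and single-exon counts, the share over all deposited peaks was not computed, so they have no background here. The merged exons join all isoforms, so a position along them is not a position on 1 mRNA. For NCOR1 the plus strand also held a deposited peak that spanned its 3′ end (17:16029313-16044586, fold 2.28, false discovery rate 0.0053 in the authors' deposited table), where the genes TTC19 and AC002553.1 overlap it.

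Exons shared with other genes touched few bases. On the same strand NCOA6 shared 96 bases, 0.862% of its exon length, with PIGU, and the other 7 shared none with any listed gene. On the opposite strand NCOR1 shared 321 bases with PIGL, 248 with TTC19 and 188 with AC002553.1, NCOA6 shared 207 with AL109824.1, and NCOA3 shared 96 with SULF2.

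The other genes of the pathway were read from 8 lists of partners, with 78 genes tested. On the log2 ratio, 13 of the 78 were at least 2-fold higher and 0 lower, with a median of 0.37. The share higher was 16.7%, against 11.3% of all genes higher and 8.25% lower. These shares of all genes were not matched for exon length. A peak lay on 47.4% of the 78 genes, against 22.6% of all genes. Among protein-coding genes tested, 31.9% of those with 4000 to 8000 exon bases and 46.0% of those with 8000 to 12000 had a peak. The part of exon length in the partner share was not tested. Among the partner genes named below, GPS2, NRIP1, NR2F6, DDX5 and DPY30 share exon bases with another listed gene on the same strand. In the list of NCOR1 complex subunits, GPS2, a small subunit, had a ratio of 1.55 (1.41 to 1.70), and HDAC3, the catalytic deacetylase, was at 0.936 times (0.678 to 1.30). TBL1XR1, an adaptor of the complex, was 1.89-fold lower in the IP (1.56 to 2.27), while its paralog TBL1X was at 1.34 times (1.05 to 1.73). These 4 subunits were thus on both sides of their input level, and all had lower log2 ratios than NCOR1, the large platform they bind. Of 14 other corepressors, 2 were at least 2-fold higher on the log2 ratio. These were SPEN, a large repressor, at 2.64 times (2.31 to 3.03) with 12 peaks, and TRIM28 at 2.39 times (2.01 to 2.85) with 6. On plain ratios, SIN3B at 2.78 times (1.88 to 4.25) and HDAC5 at 2.02 times (1.45 to 2.87) were also past 2-fold. Their log2 ratios were 0.99 and 0.75. The lowest were NRIP1, a ligand-dependent corepressor, at 0.734 times (0.619 to 0.872) and HDAC2 at 1.02 times (0.949 to 1.11).

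**Figure D4:**
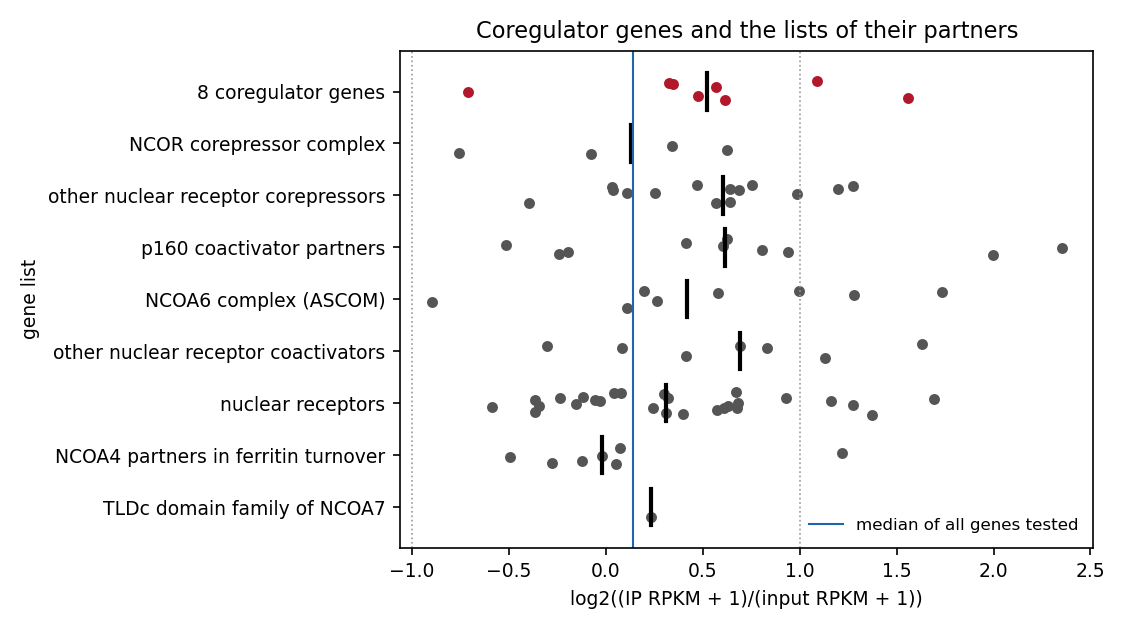
Log2 ratio of IP to input for each gene tested (points) of the 8 coregulators (red) and of the lists of their partners (grey), with the list median (black bar), the median of all genes tested (blue line, 0.14) and dotted lines at 2-fold. Points lie beyond the upper dotted line in most lists and beyond the lower one in none.

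Among the enzymes that p160 proteins recruit, the acetyltransferases CREBBP and EP300 were highest, at log2 ratios of 2.35 and 2.00 with 6 and 13 peaks, while the ratio of CARM1 was 1.71 (1.20 to 2.49). The RNA helicase genes DDX5 and DDX17, lowest of the 10, were at 0.695 times (0.653 to 0.740) and 0.837 times (0.747 to 0.937). In the NCOA6 complex, KMT2D was at 3.66 times (3.31 to 4.07) with 18 peaks and KMT2C at 2.93 times (2.48 to 3.48) with 5, alongside NCOA6 itself. The small core subunit DPY30 was 2.00-fold lower on the plain ratio (1.50 to 2.66). Its log2 ratio was -0.90, short of the 2-fold call. RBBP5 was at 1.09 times (0.861 to 1.38). Of the remaining coactivators, PELP1 at 3.46 times (2.82 to 4.29) and the large scaffold TRRAP at 2.70 times (2.24 to 3.28) were highest, and MED1, the Mediator subunit that contacts receptors, at 1.07 times (0.905 to 1.26) and TRIP4 at 0.786 times (0.574 to 1.08) were lowest. PPARGC1A, the coactivator of fasting metabolism, was below the minimum level with 22 IP and 16 input reads.

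Of the nuclear receptors themselves, 27 of the 40 in the table were tested. On the log2 ratio, 4 were at least 2-fold higher and 0 lower (11.3% and 8.25% of all genes, not matched for exon length), and the median was 0.31. NR2F1 (COUP-TF1) was highest at 3.52 times (2.84 to 4.42), with NR2F6 at 2.74 times (2.16 to 3.51). NR1H2 (3.30 times) and RARA (2.87 times) completed the 4. NR1I3 was at 2.36 times (1.03 to 6.29), on 35 and 7 reads, with a log2 ratio of 0.67. NR1D1 was lowest at 0.543 times (0.285 to 1.04), followed by HNF4G at 0.695 times (0.446 to 1.09). HNF4A, the most abundant of them, had 51.2 RPKM in the IP and 26.4 in the input, a ratio of 1.94 (1.76 to 2.13). The only TLDc gene besides NCOA7 above the minimum level, OXR1, was at 1.25 times (0.885 to 1.80).

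The genes most like NCOR1 and NCOA4 were sought by the distance between log2(RPKM + 1) values over the 2 libraries, which for 2 values means a like level and a like ratio. Nearest to NCOR1 were RNF26 (31.1 and 9.04 RPKM in IP and input), MYCN (30.7 and 8.93) and CEBPB (28.7 and 8.99), with 1, 5 and 2 peaks and with exon lengths of 1839 to 2783 bases. Nearest to NCOA4 were ECHDC1 (12.4 and 20.9 RPKM), EMC6 (12.7 and 20.5) and VDAC2 (12.6 and 20.1), each with 0 peaks.

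All ratios depend on how the libraries are scaled to each other. A scaling multiplies every plain ratio by the same factor, so it cannot change their order. With the libraries scaled to their protein-coding reads, NCOR1 was still at least 2-fold higher (log2 ratio 1.21), NCOA6 was at 0.78, NCOA5 turned to -0.027 and NCOA4 fell past 2-fold lower at -1.09, while the median of all genes moved to -0.17. After scaling both libraries to the same RPKM sum, which moved the median of all genes to 1.14, NCOA4 turned to 0.48 and NCOR1 was at 2.74. In both cases NCOR1 was highest and NCOA4 lowest of the 8, which is no separate check, since the order of plain ratios is fixed. The 78 partner genes had medians of 0.07 and 1.36 with these scalings, with 7 and 56 at least 2-fold higher and 2 and 0 lower. Of all genes tested, 6.32% and 57.4% were at least 2-fold higher with these scalings, and 15.1% and 3.03% lower. Plain RPKM ratios are multiplied by 0.764 and by 2.39, so that the partner genes given above with ratios below 1 would lie above 1 with the second, and FTL, HDAC2, RBBP5, MED1 and OXR1, now above 1, below it with the first. Intervals are multiplied by the same factors. With the first, the intervals of NCOA3, NCOA5 and NCOA7, given above as wholly above 1, would hold 1. With the second, that of NCOA4 would lie wholly above 1.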

How the data were processed

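RNA from an IP and from the input of Huh-7 cells was sequenced, 1 library each, grouped by title. Per the submitters' processing notes, Trimmomatic and STAR 2.5.3a were used on the reads. Counter, annotation, peak caller and genome build: not given in the sources used here; coordinates are those of the deposited tables. The authors deposited RPKM per gene without stating the unit, which was read from the values: multiplied by exon length, both columns have 1 sum. All values (100%) were whole multiples of 1 read within 0.01 read, which gave the read counts used for depth (5897293 and 2782045 reads) and intervals. No count model was fitted, since each group has 1 library. Per the file headers, each deposited peak has a fold (ratio), p-value, false discovery rate and score, the last being -log2 of the rate.

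The log2 ratio was log2((IP + 1)/(input + 1)) of RPKM. It understates changes of low genes and was read where both libraries averaged at least 1 RPKM. Ratios of single genes are plain RPKM ratios with an exact (Clopper-Pearson) 95% interval. A peak was placed on a gene by at least 1 exonic base on the same strand. Molecular tags were used in library preparation, per the labels; whether they entered these counts is not stated. Biotypes came from RefSeq (GRCh38.p14), which matched 19804 symbols. The members and lists were chosen with earlier results of these data known. Named genes were all 8 members and the 3 nearest genes in both libraries. From each list came the 2 highest and 2 lowest genes (all of a list with fewer than 5). HNF4A, CARM1, FTH1, LCOR, NR1H2, RARA, PPARGC1A, SIN3B, HDAC5 and NR1I3 were added after their values were seen. Some genes of the lists are not reported here. Other pseudocounts, minimum levels, scalings and peak thresholds were tried as alternatives. The call and the interval were tried on simulated counts drawn as independent, which is what the interval assumes. This could not show the effect of counting both mates of a pair. Tools were Python 3.11.15 with scipy 1.17.1, pandas 2.3.3, numpy 2.4.6 and, for plots, matplotlib 3.10.9.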

Additional observations from a re-analysis of the deposited data

How the results depend on the processing

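Pseudocounts of 0.1 or 0, a minimum mean of 5 RPKM (which removed NCOA1) and no minimum left 2 members at least 2-fold higher and 0 lower, with medians of 0.52 to 0.62. With log2 ratios centred on the median of all genes, 1 member was at least 2-fold higher, NCOR1, with NCOA6 at 0.95. With scaling to protein-coding reads, 1 was higher and 1 lower (6.32% and 15.1% of all genes), the median of the 8 was 0.20 and NCOA5 turned to -0.027. With scaling to the same RPKM sum, 7 were higher (57.4% of all genes), the median was 1.59 and NCOA4 turned to 0.48. These shifts follow from the scaling itself, which moves all genes. With folds of at least 3, 11 peaks on 3 members remained of 30 on 5. With a false discovery rate of at most 0.05, 22 peaks on 5 members remained (73.3%, against 60.3% of all deposited peaks). Asking for at least 50 exonic bases left all 30, and counting either strand gave 31. With counts halved, as if both mates of each pair had been counted, the interval of NCOA5 ran from 1.03 to 1.61 and that of NCOA3 from 1.07 to 2.07, and no member's interval changed its side of 1. No paired analysis was possible because each group has 1 library. Depth limits NCOA1 most, with 41 input reads.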

Other observations

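Peak numbers in the authors' list ran on from 5726 to 5764 across the coregulator genes, with 0 peaks of other genes between. Of these 39 numbers, 9 were absent from the deposited list: 3 between the NCOR1 peaks, 3 between the NCOA2 peaks, 1 between the NCOA6 peaks and 2 between genes. Over the whole list, 2329 of 9972 numbers (23.4%) were absent, and the 9 make up 23.1% of the run. The sources used here do not say why numbers are absent.

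The 13 partner genes at least 2-fold higher on the log2 ratio were of many lengths. The longest were KMT2D (21502 exon bases), HERC2 (20190), KMT2C (20112), TRRAP (19972), CREBBP (15479), SPEN (14336) and EP300 (11692). PELP1 (6577), NR1H2 (5341) and RARA (4743) were shorter, as were the 3 that follow. NR2F6, with 2676 exon bases, had 30.2 RPKM in the IP and 11.0 in the input, and it shares exon bases with AC010646.1 on its strand. TRIM28 (4306 bases) had 31.5 and 13.2 RPKM and NR2F1 (4312 bases) 27.6 and 7.84. Among partner genes not past 2-fold, TBL1XR1 (11689 bases), HDAC2 (15333 bases) and LCOR (29854 bases) had log2 ratios of -0.76, 0.03 and 0.04. LCOR was added after its value was seen. The part of exon length in these ratios was not tested.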
